A study of Mus musculus with 18 samples.

Results

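The genes described here are 9 genes for secreted, galectin and matrix proteins, *Fgl2*, *Ecm1*, *Lamc1*, *Lgals1*, *Lgals3*, *Lgals9*, *Sostdc1*, *Ntn4* and *Penk*, of 50600 genes counted by RNA-seq in regulatory T cells (Tregs) of 18 mice. They were chosen by their measured fold differences between CD25 KO and WT Tregs in these same libraries, which were large or depended on the tissue, so their levels are given as a description. Where a gene is said to be called, its value passed FDR < 0.01 in a fit of all genes, which restates the choice and is no test of these genes. All mice were C57BL/6, and every sample was FACS-purified Foxp3+ Tregs. The thymic groups were 5 WT mice carrying the Foxp3/RFP reporter and 5 CD25 KO mice, in which Cre expressed from the *Foxp3* locus with a YFP reporter deletes floxed *Il2ra* in Treg-lineage cells, all taken at 3 to 4 weeks of age. The thymic CD25 KO mice had been "cured" of autoimmunity by WT splenocytes injected into newborns, so they also held donor lymphocytes, and the controls carried another *Foxp3* reporter allele. Within thymus, the cell transfer and the reporter allele thus changed with genotype, and their effects cannot be told apart from that of CD25 loss. The splenic groups were 4 tamoxifen-inducible CD25 KO mice (CD25 flox/Foxp3eGFP-Cre-ERT2/R26Y, where R26Y is a YFP reporter of recombination) and 4 WT reporter controls. Tamoxifen was given at 7 to 10 weeks of age, and splenic Tregs were collected 10 to 14 days later. Tissue, mouse model, age, the time since loss of CD25 and the date in the headers of the count table, which was shared by all libraries of a tissue and differed between the tissues, changed together and cannot be told apart. In sorted bulk samples, fewer cells of a type that expresses a gene and less of its RNA per cell cannot be told apart either. By flow cytometry, the paper reports a larger share of resting, central Tregs among thymic CD25 KO Tregs, in cured adults older than the mice here. In spleen it reports a larger share of activated, effector Tregs, and it lists *Fgl2* among the effector Treg transcripts raised there. The part of these shifts in the values below was not tested.

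Tregs restrain other lymphocytes through contact and through secreted molecules, and they depend on IL-2, which they bind through the high-affinity receptor containing CD25, the product of *Il2ra*. *Fgl2* encodes fibrinogen-like protein 2, which is secreted by Tregs and binds Fc receptors on antigen-presenting cells. Galectins are lectins that bind β-galactosides on surface glycoproteins, and galectin-1, galectin-3 and galectin-9 (*Lgals1*, *Lgals3*, *Lgals9*) act on T cell survival and activation. *Ecm1* encodes a secreted matrix glycoprotein, and *Lamc1* the laminin γ1 chain, a subunit of most laminin heterotrimers of basement membranes. *Ntn4* encodes netrin-4, a laminin-related protein that binds the laminin γ1 chain. *Sostdc1* encodes a secreted antagonist of BMP and WNT signalling, and *Penk* encodes proenkephalin, the precursor of enkephalin opioid peptides.

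To show the stretch of DNA at which transcription of these genes starts, bases before the RefSeq start (GRCm38.p6) are printed for the gene with the largest fold difference in thymus, *Fgl2*, for the gene that was lower in both tissues by similar amounts, *Ecm1*, and for a gene with a difference in spleen and overlapping thymic groups, *Lgals3*. RefSeq promoters were at hand for 5 of the 9 genes, the others being *Lgals9* and *Ntn4*. The 250 bases before each start were searched on both strands for TTCNNNGAA, the pattern read by STAT5, through which the IL-2 receptor signals, and for TGANTCA, the pattern read by AP-1. Both patterns read the same on either strand and do not overlap each other here. Capitals mark a match, and the printed stretch ends where GENCODE places an exon of the gene. The *Ecm1* stretch (chr3:95739570-95739819, minus strand) is 250 bases long, the *Fgl2* stretch (chr5:21372423-21372641, plus strand) 219 bases and the *Lgals3* stretch (chr14:47373610-47373812, plus strand) 203 bases, the last lying in an intron of a longer *Lgals3* transcript. The 27 bases that hold both *Fgl2* matches (chr5:21372637-21372663) follow on a line of their own.
Fgl2: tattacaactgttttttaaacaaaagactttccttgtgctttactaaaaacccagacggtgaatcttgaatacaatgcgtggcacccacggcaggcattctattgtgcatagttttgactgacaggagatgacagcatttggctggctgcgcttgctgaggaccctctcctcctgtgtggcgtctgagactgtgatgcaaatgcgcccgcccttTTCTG
Fgl2 matches: TTCTGGGAActcagaacgccTGAGTCA
Ecm1: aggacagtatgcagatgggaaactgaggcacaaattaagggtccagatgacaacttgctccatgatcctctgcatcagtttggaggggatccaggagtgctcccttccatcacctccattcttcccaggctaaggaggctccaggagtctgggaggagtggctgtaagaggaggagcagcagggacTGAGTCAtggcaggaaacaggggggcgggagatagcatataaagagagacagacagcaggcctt
Lgals3: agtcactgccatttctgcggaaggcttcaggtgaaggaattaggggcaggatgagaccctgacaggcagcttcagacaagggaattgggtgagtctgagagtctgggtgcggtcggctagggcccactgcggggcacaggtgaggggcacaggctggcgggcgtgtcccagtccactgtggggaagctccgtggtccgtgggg
*Fgl2* held a TTCNNNGAA match starting 36 bases and a TGANTCA match starting 16 bases before the RefSeq start, and *Ecm1* held a TGANTCA match starting 64 bases before it. In GENCODE, which starts *Fgl2* further upstream, its TTCNNNGAA match crosses the start of the gene and its TGANTCA match lies inside the exon. Among all 32851 RefSeq promoters of this length, 7.02% held TTCNNNGAA and 6.75% held TGANTCA. Of the 5 promoters of these genes, 1 held the first pattern and 2 the second. A match is a description of the letters and not of binding, and *Lgals3*, *Lgals9* and *Ntn4* held neither pattern in this window.

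Total counts were 17239774 to 23993674 per thymic and 25258341 to 32639570 per splenic library. Levels are given as CPM, counts scaled to the depth of the library, after TMM scaling of all 18 libraries, where 3 counts, taken as the smallest detectable level, equal at most 0.163 CPM in thymus and 0.128 CPM in spleen. Reads carry no molecular identifiers, so this floor covers counting error only. *Il2ra* was at 524 to 682 CPM in thymic WT and at 95.8 to 280 CPM in thymic CD25 KO mice, and at 488 to 538 CPM in splenic WT and 168 to 208 CPM in splenic CD25 KO mice. Of the thymic CD25 KO mice, mice 2 and 4 had the most *Il2ra* (280 and 234 CPM, against 95.8 to 105 CPM in the other 3). Cre removes a single exon of the floxed gene, and transcripts without this exon still add to its counts. The *Il2ra* level is therefore no measure of functional CD25 left in a mouse. The paper illustrates the missing exon for peripheral Tregs. The 6 Treg and T cell markers, *Foxp3* among them, were abundant in every library, with a summed level of 2900 to 4110 CPM. Markers of immature thymocytes and CD8 T cells summed to 40.0 to 172 CPM in thymus and 8.31 to 11.1 CPM in spleen. Those of dendritic cells summed to 14.2 to 57.2 CPM, B cells to 10.2 to 24 CPM, erythroid cells to 4.51 to 39.8 CPM and thymic epithelium to 6.5 to 12.8 CPM. Plasma cells and neutrophils each summed to at most 1.74 CPM in any library. Most of the thymic epithelium sum was *Epcam*, at 4.42 to 12.6 CPM in both tissues together. Most of the dendritic cell sum in spleen was *Zbtb46*, at 23.4 to 30.8 CPM.

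The study compared WT and CD25 KO Tregs to find transcripts that depend on the IL-2 receptor. In thymus, 8 of the 9 genes passed the filter on low counts, and 3 were called lower in CD25 KO (*Fgl2*, *Lamc1* and *Ecm1*), while none was called higher. Of all 16986 genes tested in thymus, 6.16% were called at this threshold, 2.99% lower and 3.17% higher. In spleen, all 9 genes were tested, and 5 were called higher (*Sostdc1*, *Lgals3*, *Fgl2*, *Lgals1* and *Lamc1*) and 2 lower (*Ntn4* and *Ecm1*), where 9.45% of 17463 genes were called, 5.9% higher and 3.55% lower. These shares are given for scale only, since the genes were chosen with these comparisons known. The median log2 difference over the genes tested was -0.69 in thymus and 0.75 in spleen, beside -0.0022 and -0.0065 over all genes tested. In thymus the CD25 KO mice lay below every WT mouse for 4 genes and above for none, and in spleen they lay above for 5 and below for 3. Of all genes tested, 16.4% had no overlap between the mice of the groups in thymus (9.17% lower, 7.2% higher in CD25 KO) and 20.4% in spleen (9.19% lower, 11.2% higher). Each gene's values in the 18 mice are plotted by group.

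**Figure D1:**
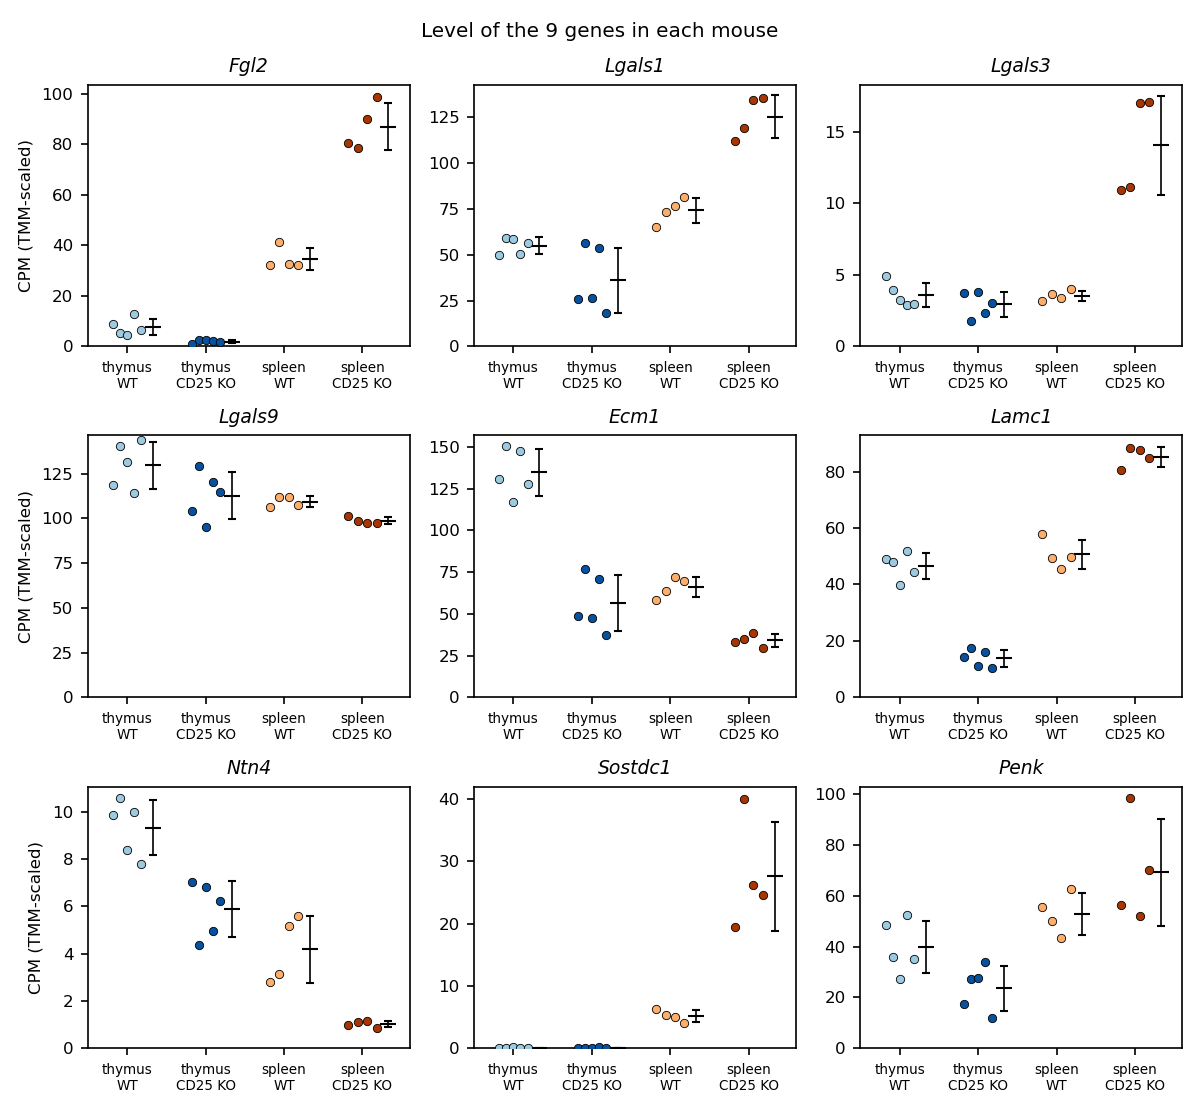
Level of each gene (CPM, TMM-scaled, linear axis from 0) in each mouse of the 4 groups, with points for mice and a bar for the mean ± SD (n = 5 per thymic and 4 per splenic group). *Fgl2* and *Lamc1* lay lower in thymic and higher in splenic CD25 KO mice than in their controls, *Ecm1* and *Ntn4* lay lower in both tissues, and *Sostdc1* was at or under 3 counts in every thymic library.

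*Fgl2* (ENSMUSG00000039899.5, chr5:21372642-21378374, plus strand) was at 8.96, 5.39, 4.62, 12.6 and 6.27 CPM in the thymic WT mice and at 0.900, 2.40, 2.67, 2.03 and 1.52 CPM in the thymic CD25 KO mice. In spleen it was at 32.2, 41.3, 32.6 and 32.1 CPM in WT and at 80.7, 78.6, 89.95 and 98.8 CPM in CD25 KO. The CD25 KO mice lay below every WT mouse in thymus and above every WT mouse in spleen. The group means were 7.57 ± 3.26 and 1.90 ± 0.706 CPM (SD, n = 5) in thymus, a log2 difference of -1.97 (SE 0.324), and 34.6 ± 4.50 and 87.0 ± 9.28 CPM (SD, n = 4) in spleen, a log2 difference of 1.33 (SE 0.0886). The splenic CD25 KO mean was 45.7 times the thymic CD25 KO mean, and the splenic WT mean 4.56 times the thymic WT mean. The thymic CD25 KO values rested on 18 to 52 counts per library. Macrophages also express *Fgl2*. The 10 macrophage and monocyte markers summed to 11.8 to 46.6 CPM (median 19.5) in thymic WT and 7.33 to 30.1 CPM (median 10.9) in thymic CD25 KO mice, which overlap. Those tested in thymus all had negative log2 differences, from -0.0448 for *Cd68* to -2.06 for *C1qc*, and none was called. The part of these cells in the *Fgl2* result was not tested. *Fgl2* lies within *Ccdc146* on the opposite strand and shares no exonic bases with it.

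Of the galectins, *Lgals1* (ENSMUSG00000068220.5, chr15:78926725-78930465, plus strand) was at 65.4, 73.1, 76.4 and 81.7 CPM in splenic WT and at 112, 119, 135 and 136 CPM in splenic CD25 KO mice. All splenic CD25 KO mice lay above all splenic controls, with a log2 difference of 0.76 (SE 0.0738). In thymus, *Lgals1* was at 49.8, 59.2, 58.8, 50.3 and 56.6 CPM in WT and at 25.9, 56.2, 26.2, 53.9 and 18.1 CPM in CD25 KO mice. The thymic CD25 KO mice thus differed among themselves, with mice 2 and 4 inside the WT range and the other 3 below it, and the log2 difference over all 5 was -0.58 (SE 0.264). Mice 2 and 4 were also those with the most *Il2ra*, and without them the log2 difference of *Lgals1* was -1.22 (SE 0.120), a value with no test, since it leaves out the mice nearest to WT. *Lgals1* was the gene with the highest level per exonic length in spleen, at 82.1 ± 7.56 RPKM, which is CPM per kilobase of exon, in WT and 139 ± 12.95 RPKM in CD25 KO (SD, n = 4).

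*Lgals3* (ENSMUSG00000050335.16, chr14:47367751-47386160, plus strand) was a low transcript with a difference in spleen. It was at 3.18, 3.66, 3.38 and 3.98 CPM in splenic WT and at 10.95, 11.2, 17.1 and 17.1 CPM in splenic CD25 KO mice, which lay above all controls. The group means were 3.55 ± 0.348 and 14.1 ± 3.47 CPM (SD, n = 4), a log2 difference of 1.99 (SE 0.163). In thymus it was at 4.94, 3.95, 3.23, 2.92 and 2.94 CPM in WT and at 3.75, 1.80, 3.81, 2.34 and 3.04 CPM in CD25 KO mice, with overlapping groups and a log2 difference of -0.28 (SE 0.222). The splenic WT level was therefore inside the range of thymic WT mice. Galectin-3 is also abundant in macrophages, and the 10 macrophage and monocyte markers summed to 22.3 to 32.9 CPM in splenic WT and 27.2 to 34.8 CPM in splenic CD25 KO mice. Among them *Lyz2* was higher in splenic CD25 KO (log2 difference 1.03, adjusted p = 0.00132, edgeR's quasi-likelihood test), *Adgre1* and *Csf1r* had log2 differences of -0.82 and -0.23 without a call, and *Cd14* was at or under 3 counts in every CD25 KO library. Their part in the *Lgals3* result was not tested.

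*Lgals9* (ENSMUSG00000001123.15, chr11:78962974-78984946, minus strand) varied least of the 9 genes. Its group means were 130 ± 13.02 and 113 ± 13.2 CPM in thymic WT and CD25 KO (SD, n = 5) and 109 ± 3.02 and 98.7 ± 1.97 CPM in splenic WT and CD25 KO (SD, n = 4). The thymic groups overlapped (log2 difference -0.18, SE 0.0896). The splenic CD25 KO mice, at 97.3 to 101 CPM, lay just below the WT mice, at 106 to 112 CPM, with a log2 difference of -0.15 (SE 0.0465) that was not called. Of the galectin genes, *Lgals1* and *Lgals3* were thus called higher in spleen and *Lgals9* was not called, and the difference between these genes was not tested.

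Among the matrix genes, *Ecm1* (ENSMUSG00000028108.15, chr3:95734147-95739569, minus strand) was lower in CD25 KO in both tissues. It was at 131, 151, 117, 147 and 127.8 CPM in thymic WT and at 49.0, 76.7, 47.8, 70.9 and 37.4 CPM in thymic CD25 KO mice. In spleen it was at 58.4, 63.7, 71.8 and 69.5 CPM in WT and at 33.4, 34.8, 38.6 and 29.4 CPM in CD25 KO mice. The groups did not overlap in either tissue, and the log2 differences were -1.24 (SE 0.171) in thymus and -0.95 (SE 0.0808) in spleen. The highest thymic CD25 KO values were again those of mice 2 and 4, at 56.9% and 52.6% of the WT mean against 27.7% to 36.3% in the other 3. Mir7014, which shares 63 of the exonic bases of *Ecm1*, had no counts in any library.

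*Lamc1* (ENSMUSG00000026478.14, chr1:153218922-153332786, minus strand) had opposite directions in the tissues. It was at 48.9, 48.1, 39.8, 51.9 and 44.3 CPM in thymic WT and at 14.4, 17.3, 10.9, 15.9 and 10.6 CPM in thymic CD25 KO mice. In spleen it was at 57.9, 49.4, 45.5 and 49.8 CPM in WT and at 80.5, 88.5, 87.5 and 84.8 CPM in CD25 KO mice. Every thymic CD25 KO mouse lay below and every splenic CD25 KO mouse above its controls, with log2 differences of -1.73 (SE 0.136) and 0.75 (SE 0.0676). The WT levels overlapped between the tissues, whereas the splenic CD25 KO mean was 6.17 times the thymic CD25 KO mean. Fibroblasts and endothelium also make laminins. The 5 fibroblast markers summed to at most 3.49 CPM in any library, with *Lum* at or under 3 counts in all of them. The 4 endothelial markers summed to 0.683 to 2.86 CPM in thymic WT and 0.21 to 6.10 CPM in thymic CD25 KO mice. In spleen they summed to at most 0.645 CPM. The part of these cells in the *Lamc1* result was not tested.

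*Ntn4* (ENSMUSG00000020019.4, chr10:93640681-93747207, plus strand) was lower in CD25 KO mice of both tissues, and the lowest of the 9 genes per length in spleen. It was at 9.88, 10.6, 8.39, 10.0 and 7.81 CPM in thymic WT and at 7.05, 4.38, 6.80, 4.95 and 6.25 CPM in thymic CD25 KO mice. In spleen it was at 2.79, 3.15, 5.18 and 5.59 CPM in WT and at 0.989, 1.12, 1.14 and 0.854 CPM in CD25 KO mice. The groups did not overlap in either tissue. The log2 difference was -2.02 (SE 0.244) in spleen, the largest decrease among the 9 genes there. In thymus it was -0.65 (SE 0.144), which narrowly missed a call (adjusted p = 0.0101, edgeR's quasi-likelihood test). The splenic CD25 KO values rested on 26 to 31 counts per library.

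*Sostdc1* (ENSMUSG00000036169.5, chr12:36314139-36318452, plus strand) was a splenic transcript in these cells. All 10 thymic libraries held 3 counts or fewer, and 7 held none. In spleen it was at 6.27, 5.27, 5.10 and 4.10 CPM in WT and at 19.5, 40.0, 26.2 and 24.6 CPM in CD25 KO mice, with no overlap. The splenic group means were 5.18 ± 0.892 and 27.6 ± 8.77 CPM (SD, n = 4), a log2 difference of 2.41 (SE 0.189), the largest increase among the 9 genes. Against the floor of 3 counts per library, the splenic level was at least 31.8-fold higher than the thymic level in WT and at least 169-fold higher in CD25 KO. A difference between the genotypes in thymus was not detectable at this depth.

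*Penk* (ENSMUSG00000045573.9, chr4:4133531-4138819, minus strand) had overlapping genotypes in both tissues. It was at 48.3, 35.9, 27.3, 52.2 and 35.2 CPM in thymic WT and at 17.3, 27.2, 27.6, 34.0 and 11.8 CPM in thymic CD25 KO mice, and at 55.6, 49.9, 43.5 and 62.7 CPM in splenic WT and 56.3, 98.5, 52.0 and 70.2 CPM in splenic CD25 KO mice. The log2 differences were -0.74 (SE 0.256) in thymus and 0.39 (SE 0.157) in spleen, and neither was called. All splenic CD25 KO mice lay above all thymic CD25 KO mice. *Penk* shares 14.3% of its exonic bases with the antisense transcript A830012C17Rik, which had at most 24 counts in any library. The strand setting of the counting is not given in the sources used here.

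The difference between CD25 KO and WT in spleen minus that in thymus, on the log2 scale, described how far the tissues differed. It too was known when the genes were chosen. It was 3.32 (SE 0.336) for *Fgl2*, 2.50 (SE 0.163) for *Lamc1*, 2.28 (SE 0.298) for *Lgals3*, 1.36 (SE 0.312) for *Lgals1* and -1.36 (SE 0.290) for *Ntn4*, which were called in this fit. These 5 calls restate the choice of the genes, and they are not stable for all of them. The call of *Lgals1* was lost in 12 of the 18 fits that left out 1 mouse (adjusted p 0.0102 to 0.0151 in edgeR), and that of *Ntn4* was lost without splenic CD25 KO mouse 4 (adjusted p = 0.0107). Of 18686 genes, 6.98% were called in this comparison, 4.5% positive and 2.49% negative. It was 1.14 (SE 0.343) for *Penk*, 0.30 (SE 0.214) for *Ecm1* and 0.053 (SE 0.109) for *Lgals9*, which were not called, and the fitted value of 1.64 (SE 1.62) for *Sostdc1* rests on thymic libraries with 3 counts or fewer and gives no direction. Within the tissues, *Fgl2* and *Lamc1* were called in both, lower in thymus and higher in spleen, and *Ecm1* was called lower in both. *Lgals1* and *Lgals3* were called higher in spleen alone, with negative thymic values that were not called and overlapping thymic groups. *Ntn4* was called lower in spleen alone, with a negative thymic value. *Penk* (negative in thymus, positive in spleen) and *Lgals9* (negative in both) were called in neither tissue, so their signs give no firm direction. Without thymic CD25 KO mice 2 and 4, the value was 0.64 (SE 0.142) for *Ecm1* and 1.47 (SE 0.338) for *Penk*, given without a test because these mice lay nearest to WT for *Ecm1*.

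**Figure D2:**
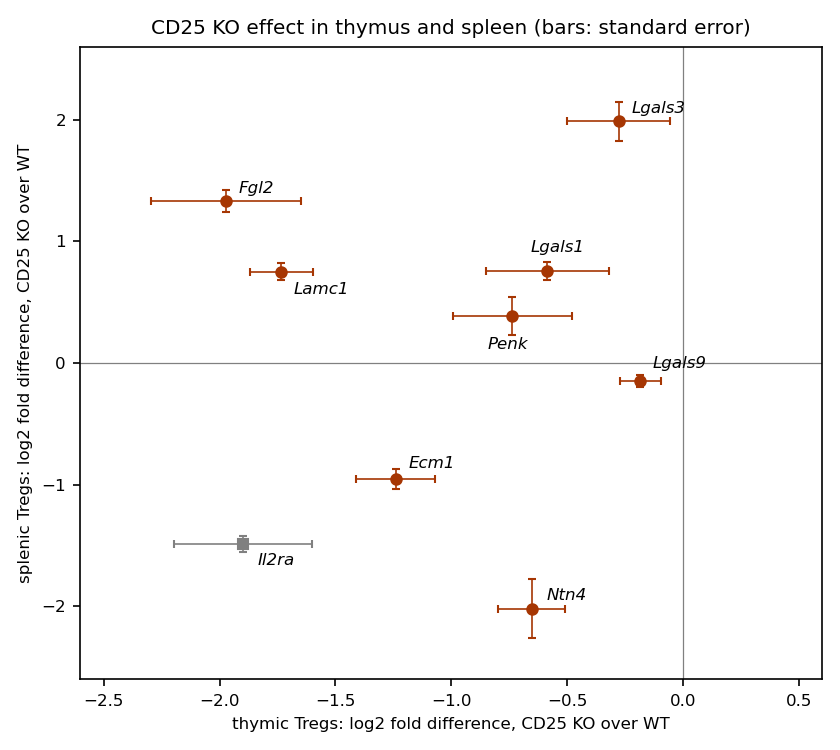
Log2 fold difference of CD25 KO over WT in thymic Tregs (horizontal axis) and in splenic Tregs (vertical axis) for 8 of the genes and *Il2ra*, with SEs from edgeR as bars; *Sostdc1* is left out because it was not tested in thymus. *Fgl2* and *Lamc1* lie at upper left (-1.97 and -1.73 in thymus, 1.33 and 0.75 in spleen), and *Ecm1* and *Ntn4* at lower left, as does *Il2ra*.

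How far each thymic CD25 KO mouse lay from the WT mean differed among the genes. *Lamc1* was at 22.6% to 37.2% of the WT mean in the 5 mice, *Fgl2* at 11.9% to 35.2%, *Ecm1* at 27.7% to 56.9%, *Penk* at 29.6% to 85.4% and *Ntn4* at 46.9% to 75.5%. *Lgals1* covered 32.9% to 102%, *Lgals3* 49.9% to 106% and *Lgals9* 73.5% to 99.6%. *Il2ra* itself was at 45.6% and 38.1% in mice 2 and 4 and at 15.6% to 17.1% in the others. Mice 2 and 4 had the highest values of the 5 mice for *Lgals1*, *Ecm1*, *Lamc1* and *Lgals9*, and the lowest for *Ntn4* and *Lgals3*. Thus the mice with the most *Il2ra* transcript were closest to WT for some of these genes and farthest for others. Counts of *Il2ra* do not measure functional CD25, and their relation to these values was not tested. Over genes with enough counts to compare, mice 2 and 4 differed less from each other than from the other thymic CD25 KO mice. The mean chi-square per gene between their libraries was 8.60, against 16.5 to 48.4. Their separation was therefore not limited to the genes described here.

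**Figure D3:**
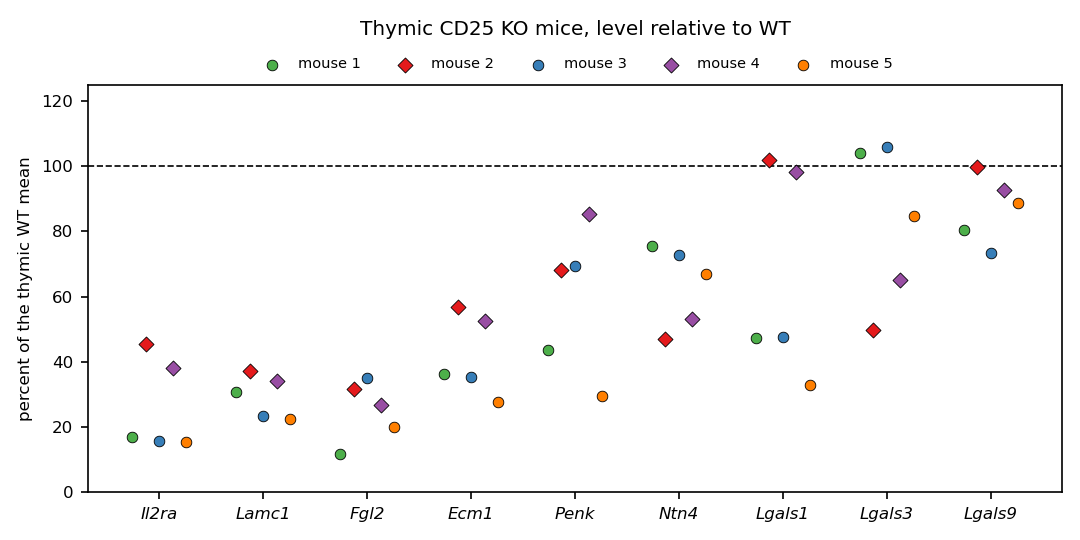
Level of *Il2ra* and 8 of the genes in each thymic CD25 KO mouse as a percentage of the mean of the 5 thymic WT mice (dashed line at 100%), with diamonds for mice 2 and 4 and circles for the others. For *Lgals1*, mice 2 and 4 lie at 102% and 98.1% and the other 3 at 32.9% to 47.7%.

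The level in spleen against thymus, averaged over WT and CD25 KO, contains the CD25 KO effects by which the genes were chosen, and is given as a description with the ratio among WT mice beside it. All 9 genes were called in this fit, where 58.2% of the 18686 genes tested were, 29.7% higher and 28.5% lower in spleen, and *Sostdc1* passed the filter on low counts through spleen alone. *Fgl2* was higher in spleen by a log2 difference of 3.85 (SE 0.167), and its splenic WT mean was 4.56 times the thymic WT mean, with no overlap. *Lgals1* was higher by 1.11 (SE 0.155), with 1.35 times the thymic level among WT mice and no overlap. For *Lamc1* (1.37, SE 0.0806), *Lgals3* (1.12, SE 0.148) and *Penk* (0.98, SE 0.171) the WT mice of the tissues overlapped, at ratios of 1.09, 0.987 and 1.33, whereas their CD25 KO mice did not overlap. The average of *Lamc1* and *Lgals3* therefore comes mainly from the CD25 KO mice. Lower in spleen were *Ntn4* (-1.84, SE 0.147), *Ecm1* (-0.88, SE 0.108) and *Lgals9* (-0.22, SE 0.0546), with splenic WT means 0.448, 0.489 and 0.844 times the thymic WT means and no overlap among WT mice. The CD25 KO mice of the tissues overlapped for *Ecm1* and *Lgals9*. *Il2ra* had a log2 difference of -0.014 (SE 0.171) between the tissues.

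Levels of different genes were compared per exonic length. In thymic WT Tregs, *Lgals1* (60.8 ± 5.08 RPKM), *Lgals9* (60.6 ± 6.09 RPKM) and *Ecm1* (53.5 ± 5.56 RPKM) were highest, with neighbours overlapping, followed by *Penk* (24.3 ± 6.26 RPKM) and *Lamc1* (5.63 ± 0.566 RPKM; SD, n = 5). *Ntn4*, *Fgl2* and *Lgals3*, at 2.49, 2.00 and 1.94 RPKM, overlapped their neighbours in this order. In thymic CD25 KO Tregs, *Lgals9* led with 52.7 ± 6.19 RPKM and *Fgl2* had 0.502 ± 0.186 RPKM (SD, n = 5), the lowest but for *Sostdc1*. In splenic WT Tregs the order was *Lgals1*, *Lgals9*, *Penk*, *Ecm1*, *Fgl2*, *Lamc1*, *Sostdc1*, *Lgals3* and *Ntn4*, and only *Penk* and *Ecm1* overlapped as neighbours. In splenic CD25 KO Tregs, *Fgl2* (23.0 ± 2.45 RPKM) and *Sostdc1* (15.5 ± 4.92 RPKM; SD, n = 4) had passed *Ecm1* in mean level, with *Sostdc1* overlapping both.

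Genes related to the 9 by family or pathway, in 8 lists of 144 genes, were followed in the same fits. In spleen, 22 of the 88 tested were higher and 4 lower in CD25 KO at FDR < 0.01, which is 25% and 4.55% of them beside 5.9% and 3.55% of all genes. In thymus, 2 of 73 were higher and 5 lower, which is 2.74% and 6.85% beside 3.17% and 2.99% of all genes. The lists were chosen with earlier results of these data known, so these shares describe the lists only.

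Adjusted p of these related genes are from the quasi-likelihood test of edgeR, adjusted by the Benjamini-Hochberg method. Among the glycoproteins that galectins bind and the enzymes that build their glycans, 7 of 17 genes tested were higher and 1 lower in splenic CD25 KO, with a median log2 difference of 0.23. They included *Havcr2*, which encodes TIM-3, a receptor of galectin-9, at 1.83 to 3.58 CPM in WT and 6.96 to 10.0 CPM in CD25 KO (log2 difference 1.77, adjusted p = 9.9e-06), and *Lag3*, an inhibitory receptor of T cells that galectin-3 binds, at 25.5 to 40.9 and 94.3 to 146 CPM (1.68, adjusted p = 9.29e-07). *Mgat4a*, a branching enzyme of N-glycans, was lower (-0.37, adjusted p = 0.000199). In thymus, 3 of 16 were lower and 2 higher, with a median of -0.20. *Gcnt1*, which branches core O-glycans, was lower (-1.29, adjusted p = 0.00938), as was *Spn*, encoding CD43 (-0.53, adjusted p = 0.00369), while *Ptprc*, encoding CD45 (0.54, adjusted p = 0.00889), and *Lamp2* (0.31, adjusted p = 0.00756) were higher. *Gcnt1* had the opposite direction in spleen (0.84, adjusted p = 4.88e-06), and its effect differed between the tissues by 2.13 on the log2 scale (adjusted p = 2.07e-05).

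Of the other galectin genes, 6 were tested in each tissue. *Lgalsl*, encoding a galectin-like protein, was higher in splenic CD25 KO (0.58, adjusted p = 0.00891), although its mice overlapped between the groups at 10.2 to 14.1 and 13.4 to 21.5 CPM, and none was called in thymus. Of the proteins with a fibrinogen domain and the FGL2 receptors, 1 of 5 tested was called in spleen, *Angptl2*, a secreted angiopoietin-like protein, at 26.1 to 32.96 CPM in WT and 56.8 to 65.0 CPM in CD25 KO (1.07, adjusted p = 3.24e-07).

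Among laminin chains and laminin receptors, 2 of 11 tested were lower in thymic CD25 KO and none higher, and in spleen 3 of 14 were higher and 2 lower. *Itgb1*, the integrin β1 chain of laminin-binding integrins, had the same directions as *Lamc1*. It was at 154 to 175 CPM in thymic WT and 82.4 to 96.7 CPM in thymic CD25 KO (-0.78, adjusted p = 1.54e-05), and at 616 to 715 CPM in splenic WT and 914 to 1250 CPM in splenic CD25 KO (0.74, adjusted p = 1.77e-05), and the effects differed between the tissues by 1.54 (adjusted p = 4.37e-08). *Lama5*, a laminin α chain, was lower in thymus (-1.46, adjusted p = 0.00157). *Itga7*, a laminin-binding integrin α chain, was higher in spleen (1.02, adjusted p = 2.86e-05), where *Itga6*, another (-0.34, adjusted p = 0.000868), and *Dag1*, encoding dystroglycan (-0.39, adjusted p = 0.00703), were lower.

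Of the other matrix genes, 7 of 22 were higher and none lower in splenic CD25 KO (median 0.37), and none of 19 was called in thymus. The largest of those above the level limit for naming were *Tnc*, encoding tenascin-C (1.56, adjusted p = 0.000835), and *Mmp14*, a membrane-bound metalloproteinase (1.47, adjusted p = 0.000524). Among netrins and netrin receptors, *Neo1*, encoding the receptor neogenin, was higher in spleen at 0.732 to 1.12 CPM in WT and 2.62 to 6.45 CPM in CD25 KO (2.11, adjusted p = 7.72e-05), 1 of 5 tested. Of the BMP and WNT antagonists and LRP receptors, *Sfrp2* was lower in splenic CD25 KO (-1.17, adjusted p = 0.000261) and *Kremen2* (0.80, adjusted p = 0.00208) and *Twsg1* (0.50, adjusted p = 0.00184) were higher, 3 of 10 tested. None of the opioid peptide genes, processing enzymes and receptors was called in thymus (5 tested) or spleen (9 tested). NK cell markers summed to 4.71 to 8.02 CPM in splenic WT and 10.9 to 16.2 CPM in splenic CD25 KO. Most of this was *Eomes*, at 2.36 to 7.65 CPM in WT and 6.87 to 13.2 CPM in CD25 KO, which was not called (1.00, adjusted p = 0.0187). *Klrb1c* was called higher (1.90, adjusted p = 0.0029), and *Ncr1* was at 0 counts in every splenic library. The part of NK cells in the splenic results was not tested.

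**Figure D4:**
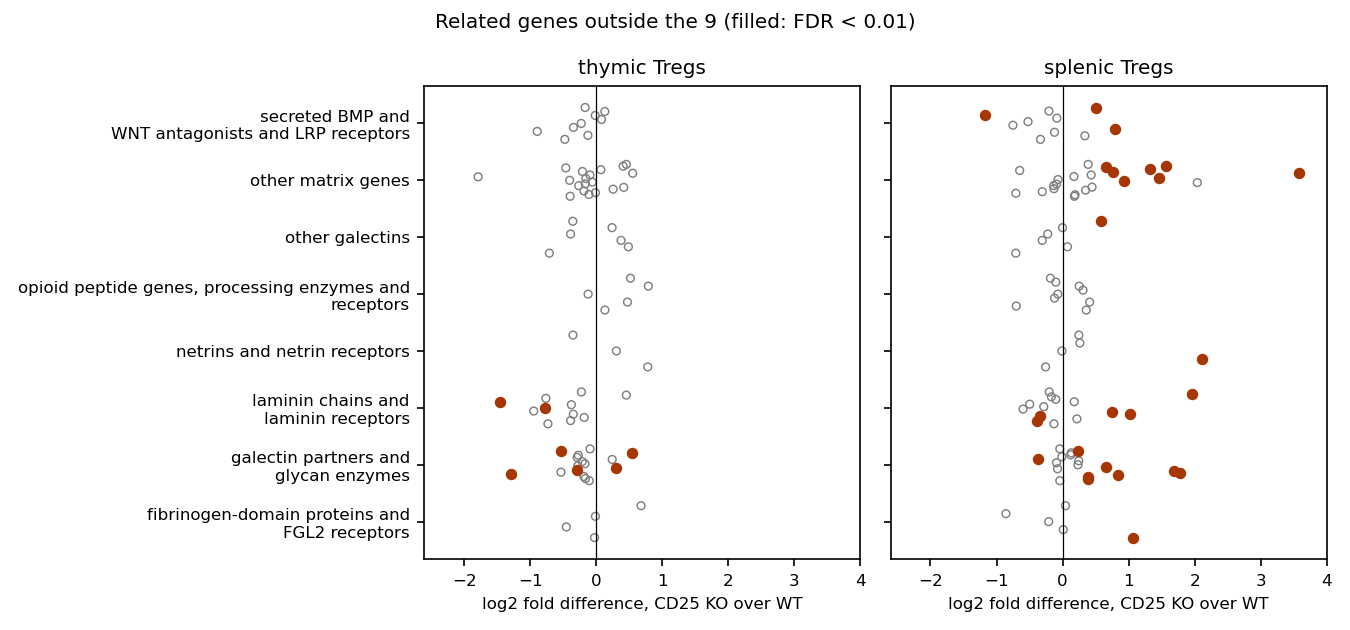
Log2 fold difference of CD25 KO over WT for each tested gene of the 8 related lists in thymic (left) and splenic Tregs (right), with filled points for genes at FDR < 0.01 and open points for the rest. In spleen 22 filled points lie to the right of 0 and 4 to the left, and in thymus 2 and 5.

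For each of the 9 genes, the genes with the most similar pattern were found among 13261 candidates by the root mean square (RMS) difference of log2 CPM over the 18 mice, each centred on its own mean. *Lgals1* was closest to *Cdc25b* (RMS 0.19), *Ehd4* (0.215) and *Acot7* (0.222), where its own spread around its mean was 0.781. *Lamc1* was closest to *Scin* (0.27) and *C1qtnf6* (0.304), with a spread of 1.00, and then to *Aqp3* (0.365). *Fgl2*, with a spread of 2.15, was closest to *Zdhhc2* (0.408), *Bace2* (0.416) and *Gcnt1* (0.472). *Ecm1*, with a spread of 0.756, was closest to *Pdgfb* (0.305), *Gpr83* (0.305) and *Myc* (0.343). *Penk*, with a spread of 0.717, was closest to *Dhdh* (0.295), *Cd83* (0.30) and *Akr1e1* (0.304). *Lgals3*, with a spread of 0.912, was closest to *Ifitm2* (0.447), *Angptl2* (0.453) and *Slc1a4* (0.483). *Ntn4*, with a spread of 1.16, was closest to *Treml2* (0.399), *Mmp11* (0.44) and *Gsto1* (0.447). *Sostdc1*, with a spread of 3.47, was closest to *Ecel1* (0.759), *Slc7a10* (0.872) and *Cd22* (0.914). *Lgals9* was closest to *U2af1* (0.0853), *Ipo9* (0.086) and *Taf4* (0.0874), with a spread of 0.176. All points share the same 18 libraries and their 4 groups.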

How the data were processed

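RNA-seq counts were analysed from FACS-purified Tregs of 18 mice, grouped by tissue and genotype as labelled. The authors mapped paired reads to GRCm38 (mm10) with STAR 2.5.0b, assigned them to GENCODE M13 genes with featureCounts 1.5.0 and deposited raw counts without normalization. Symbols, coordinates and exonic lengths came from GENCODE M21, and promoter sequences from RefSeq.

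In R 4.3.3 with edgeR 4.0.16, genes were kept by filterByExpr, TMM factors were applied, and the genotypes of each tissue were compared by the quasi-likelihood test with Benjamini-Hochberg adjustment (FDR < 0.01). The difference of the effect between tissues and the level in spleen against thymus came from a fit of all 18 samples in 4 groups. The SE is the log2 difference divided by the square root of the F statistic. The study named DESeq2, run here as an alternative (version 1.42.0). Other alternatives were RLE and upper-quartile scaling, FDR < 0.05, keeping all genes or only those with 10 or more counts in each sample, removal of a GC trend (lowess span 0.3), all samples in 1 fit, thymic mouse numbers as a block, and leaving out mice. The procedure was tested on simulated data.

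The 9 genes and the related lists were chosen with earlier results of these data known. Named besides the 9 genes were, per list and tissue, up to 2 genes called higher and up to 2 called lower with the largest fold and an average log2 CPM of at least 0, the 3 most similar genes for each (average log2 CPM of at least 1, prior count of 2) and *Il2ra*. Replicates are mice. No pair of libraries agreed within sampling noise. Markers of 12 cell types were examined, and those bearing on a result stand beside it.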

Additional observations from a re-analysis of the deposited data

Results flagged for a closer look

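In 36 groups of values, 9 genes and 4 groups each, the most extreme mouse was checked by Dixon's gap ratio, which flags about 1 group in 20 by chance, and 2 stood apart. For *Fgl2* in splenic WT, mouse 2 was at 41.3 CPM and the other 3 at 32.1 to 32.6 CPM, so its gap to the nearest took a share of 0.947 of the range. For *Sostdc1* in thymic WT, mouse 3 was at 0.1346 CPM, from 3 counts, and the other 4 at 0.

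For 5 genes the difference between CD25 KO and WT was called unlike in spleen and thymus in the edgeR fit of all 18 libraries. The genes were chosen with this comparison known, so the call restates the choice. The difference, spleen minus thymus on the log2 scale, was 3.316 for *Fgl2*, 2.5 for *Lamc1*, 2.279 for *Lgals3*, 1.359 for *Lgals1* and -1.355 for *Ntn4*. Tissue, mouse model, age, header date, and in thymus the cell transfer and the reporter allele, cannot be told apart in it.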

How the results depend on the processing

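Of 778 values of single genes under 29 alternative settings, 749 kept their direction and their side of the threshold, 15 lost and 11 gained a call, and 3 changed sign. The changes of sign were of uncalled differences between tissues: *Lgals9* under upper-quartile scaling (-0.024) and without thymic CD25 KO mouse 3 (-0.014), and *Sostdc1*, whose fitted value of 1.64 (SE 1.62) gives no direction, without thymic WT mouse 3 (-0.98), which held 3 counts. Without 1 mouse at a time, these differences ran from -0.014 to 0.104 for *Lgals9* and from -0.98 to 2.48 for *Sostdc1*. In thymus, *Ntn4* passed FDR < 0.01 with DESeq2 (adjusted p = 0.000291), under both alternative filters and in 1 fit of all samples. *Lgals1* in spleen missed it in 1 fit of all samples (adjusted p = 0.0418), and *Penk* in spleen passed it without a filter (adjusted p = 0.000201). The difference between tissues missed it for *Lgals1* in 12 of the 18 fits without 1 mouse (adjusted p 0.0102 to 0.0151) and for *Ntn4* without splenic CD25 KO mouse 4 (adjusted p = 0.0107), where 3 of the 9 genes were called against 3 to 5 over all such fits. The cause was not tested for any of these.

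The number of all genes called in thymus was 1047, and 3951 at FDR < 0.05, 2763 with DESeq2, 2881 in 1 fit of all samples, 2008 without thymic CD25 KO mice 2 and 4, and 371 to 1087 without 1 mouse. It fell to 380, 401 and 428 without WT mouse 2, 3 or 5 and to 406 and 371 without CD25 KO mouse 1 or 3. In spleen it was 1651, and 3001 at FDR < 0.05, 795 in 1 fit of all samples and 1099 to 1723 without 1 mouse (1099 without WT mouse 3). For the difference between tissues it was 1305, and 3149 at FDR < 0.05, 2188 with DESeq2, 2307 without thymic CD25 KO mice 2 and 4, and 817 to 1489 without 1 mouse (817 without splenic CD25 KO mouse 2). Upper-quartile scaling moved the share of higher calls from 51.5% to 64.7% in thymus (808 higher, 440 lower) and to 47.9% (616 higher, 669 lower, against 840 and 465) for the difference between tissues.

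With thymic mouse numbers as a replicate block, 209 genes were called in thymus, and 226 with the GC trend removed as well, and *Fgl2* missed the threshold (log2 difference -1.93, adjusted p = 0.0157). Deviations of same-numbered mice correlated weakly, at -0.238 to 0.144. These correlations cannot exclude that same-numbered mice shared handling, so whether the numbers pair the mice is not known. Splenic mice carry no such numbers in the labels. The log2 difference correlated with GC content across genes (Spearman's rho -0.407 in thymus, -0.165 in spleen). With the trend removed, each of the 9 genes kept its call. Depth limits *Sostdc1* in thymus, and the low counts of *Fgl2* in thymic and *Ntn4* in splenic CD25 KO mice.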
